A study of Mus musculus with 9 samples.

Results

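Described here are 10 genes of RNA-binding proteins known for their part in neurons: Celf3, Elavl2, Elavl3, Elavl4, Nova1, Nova2, Srrm4, Rbfox1, Rbfox2 and Rbfox3. They were chosen by name, and each matched 1 row of the 49671 Ensembl genes in the deposited table. The series holds RNA from cells sorted out of the epidermis of Sox2-GFP reporter mice at P0, the day of birth. GFP-positive cells are labelled Merkel cells, the skin's mechanosensory cells, with 3 libraries. GFP-negative cells positive for SCA1 and CD49F are labelled basal keratinocytes, and 6 libraries were made from them, a first and a second for each of sample numbers 1 to 3. All libraries come from mice with the reporter, which marks any epidermal cell with Sox2 activity. What sets a first basal library apart from a second is not in the labels, nor is the meaning of a sample number (an animal or a pool, for example), so p-values measure only the spread between sample numbers, which may be technical.

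Cell identity shows in more than transcription. Neuronal transcripts are spliced, stabilised and translated differently from those of other cells, and a small set of RNA-binding proteins is known to direct this. ELAVL2, ELAVL3 and ELAVL4, the neuronal Hu proteins, bind U-rich stretches of transcripts and raise their stability. NOVA, RBFOX and CELF proteins choose between exons, and SRRM4 promotes the inclusion of microexons, very short exons used mostly in neurons. Merkel cells derive from the epidermis, yet they release transmitters and carry many neuronal transcripts.

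The values are TPM, a transcript abundance corrected for gene length and scaled to 1 fixed total in every library, so that levels of different genes can be compared. The read depth behind them is unknown. Between 13012 and 13649 genes reached 1 TPM in a library. Small, structural and mitochondrial RNAs held 53.43% of TPM in Merkel replicate 2 and 40.63% to 46.07% in the other 8 libraries. Merkel and basal markers followed the labels. The 8 Merkel cell markers summed to 837 to 1119 TPM in Merkel and 2.32 to 5.91 in basal libraries, and the 7 basal markers to 4553 to 5097 and 12844 to 17362. The 5 markers of suprabasal keratinocytes, led by Krt1, did not separate the groups. They summed to 4579 to 8820 TPM in Merkel and 4547 to 8846 in basal libraries. The reporter sequence EGFP was at 178 to 247 TPM in Merkel, 1.73 to 3.72 in first and 13.4 to 18.3 in second basal libraries. In bulk samples fewer cells of a type and less RNA per cell cannot be told apart.

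The regulators fell into a few that Merkel libraries held at several TPM and several that were close to 0 in every library. By mean TPM in Merkel libraries the order was Rbfox2 (14.96), Rbfox1 (3.63), Elavl2 (3.61), Celf3 (1.69), Elavl3 and Elavl4 (0.73 each), Srrm4 (0.357), Rbfox3 (0.25), Nova1 (0.08) and Nova2 (0.03). Rbfox1 and Elavl2 overlapped in range, as did Elavl3 and Elavl4. Srrm4 overlapped Elavl4 and Rbfox3, and Rbfox3 overlapped Nova1. In basal libraries Rbfox2 led at 12.0 TPM, followed by Srrm4 (0.703) and Celf3 (0.595), and the other 7 had means of 0.227 TPM or less.

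Every Merkel library lay above every basal library for 5 of the 10 genes (Elavl2, Elavl3, Rbfox1, Celf3, Nova1) and below for 1 (Srrm4). Over all 28450 genes above 0 in any library, 9.55% were separated upward in this way and 16.8% downward. A gene was tested if it reached 1 TPM in at least 3 of 6 values, which were the 3 Merkel libraries and the mean of the basal libraries of each number. Of the 10 genes 4 were tested (Elavl2, Rbfox1, Celf3, Rbfox2), and the first 3 passed only through their Merkel values, so that a difference was built into their passing. The same holds for each gene below that was called higher with a basal mean under 1 TPM. Elavl2 and Rbfox1 were called higher in Merkel cells (limma, adjusted p under 0.05 with a change of at least 1 in log2(TPM + 1)), and 6.79% of all 13822 tested genes were. With no filter on low values 6 of the 10 had a limma adjusted p under 0.05 in the upward direction and 0 in the downward direction, where 8.67% of all genes did so upward.

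**Figure D1:**
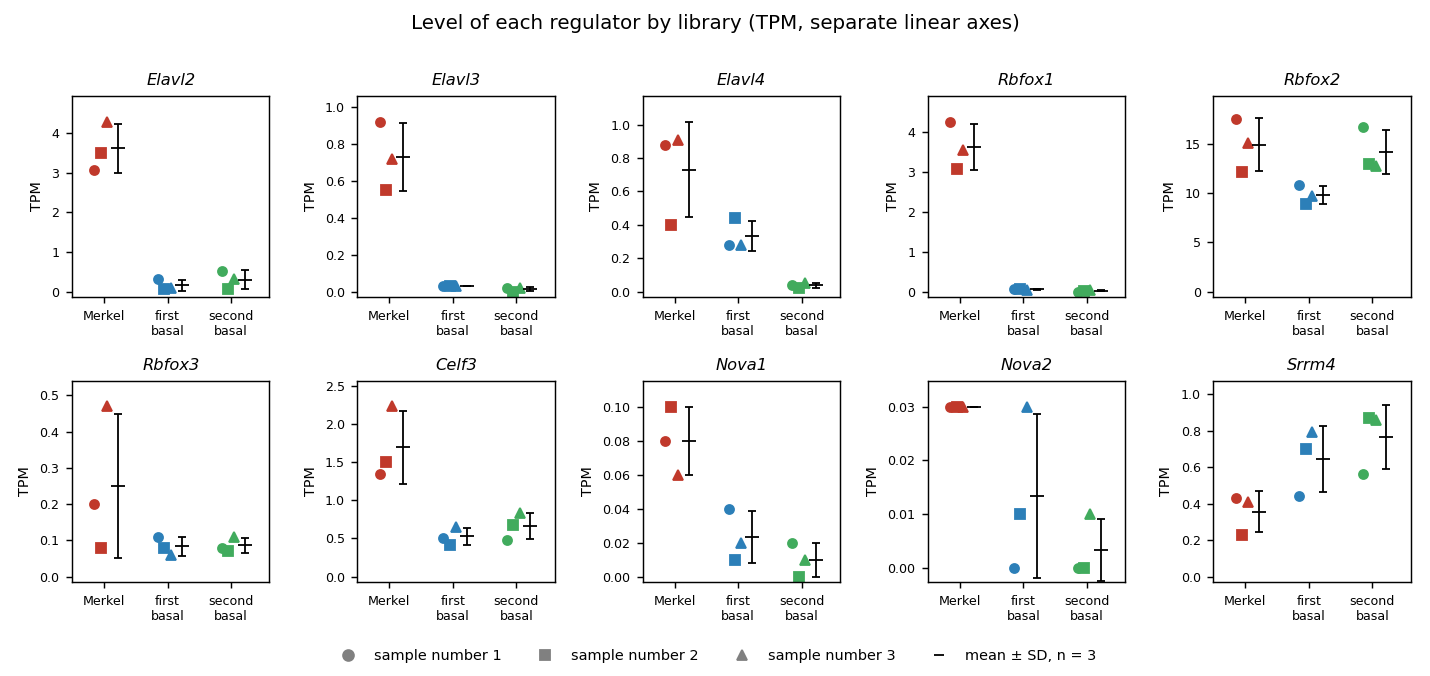
TPM of the 10 genes in each library (vertical axis, linear and separate for each gene) for Merkel, first basal and second basal libraries; marker shapes give the sample number and black bars the mean ± SD of 3 libraries. Elavl2, Elavl3 and Rbfox1 sit far above their basal values, Rbfox2 overlaps between groups, and Srrm4 is lower in Merkel libraries than in basal libraries.

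Promoter sequence was compared for the 4 genes with the highest mean Merkel level among the 5 separated upward, to show what sequence they share near their starts. Sequences run from 250 bases before to 50 bases after the most upstream RefSeq start (GRCm38.p6), 5′ to 3′ on the gene's strand. The windows are chr4:91399935-91400234 (minus strand), chr9:22051974-22052273 (minus), chr3:94478045-94478344 (plus) and chr16:5884543-5884842 (plus). Capitals mark CAGCTG, an E-box, the kind of site that basic helix-loop-helix factors such as Atoh1 bind.
Elavl2: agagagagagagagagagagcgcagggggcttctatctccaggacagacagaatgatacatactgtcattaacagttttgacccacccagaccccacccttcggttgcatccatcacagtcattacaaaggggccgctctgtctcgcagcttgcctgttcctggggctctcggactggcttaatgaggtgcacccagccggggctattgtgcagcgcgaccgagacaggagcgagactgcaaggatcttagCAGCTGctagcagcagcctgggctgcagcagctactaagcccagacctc
Elavl3: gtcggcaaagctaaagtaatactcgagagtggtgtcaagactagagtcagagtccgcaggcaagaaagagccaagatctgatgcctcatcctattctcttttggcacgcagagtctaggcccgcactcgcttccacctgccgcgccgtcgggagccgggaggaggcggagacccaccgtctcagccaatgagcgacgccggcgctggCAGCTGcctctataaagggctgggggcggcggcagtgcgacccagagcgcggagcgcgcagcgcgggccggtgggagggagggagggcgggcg
Celf3: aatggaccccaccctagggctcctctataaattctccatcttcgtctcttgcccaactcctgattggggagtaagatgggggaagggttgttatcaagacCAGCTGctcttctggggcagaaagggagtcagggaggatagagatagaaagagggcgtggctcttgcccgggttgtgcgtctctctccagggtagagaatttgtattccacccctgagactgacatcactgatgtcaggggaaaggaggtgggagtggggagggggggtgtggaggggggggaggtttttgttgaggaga
Rbfox1: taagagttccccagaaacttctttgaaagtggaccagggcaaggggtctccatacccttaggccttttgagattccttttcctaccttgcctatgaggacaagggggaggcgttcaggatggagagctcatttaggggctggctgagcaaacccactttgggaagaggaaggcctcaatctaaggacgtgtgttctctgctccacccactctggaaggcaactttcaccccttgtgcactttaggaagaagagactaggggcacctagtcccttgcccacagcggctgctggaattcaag
The letters CAGCTG stand in the windows shown for Elavl2, Elavl3 and Celf3 and not in that shown for Rbfox1. With 1 window for each gene they were found in 4 of 9 members (Nova1 is the fourth), and in 16.1% of 27025 genes. The E-box CAGATG, searched on both strands, was found in 1 of the 9 (Srrm4) and in 17.3% of genes. The site known for the neuronal repressor REST was searched on both strands as its left part, TTCAGCACC, as the right part of the RE1 consensus, and as both joined. Of all 24 windows of these 9 genes, other start sites included, 11 held CAGCTG and 7 held CAGATG, against 16.3% and 17.2% of all 32851 windows. Some windows of a gene overlap and hold the same site, so they are not independent. The windows with CAGCTG belong to 6 genes, among them Rbfox1 and Elavl4 at another start, and those with CAGATG to 3. Left and right part each stood in 0 of the 9 genes' windows, and in 0.37% and 0.537% of all genes. Such matches describe letters in a short window and say nothing about binding. Rbfox2 was not among the promoter entries.

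In the Elavl family, Merkel libraries held Elavl2 on top of the ubiquitous Elavl1. Elavl2 (HuB; chromosome 4, 91250763 to 91400785, minus strand of GRCm38) was at 3.07, 3.49 and 4.28 TPM in Merkel replicates 1, 2 and 3. It was at 0.31, 0.06 and 0.09 TPM in first and 0.53, 0.06 and 0.31 in second basal libraries. The groups did not overlap, and sample number 1 was the highest of both basal sets. Mean levels were 3.61 ± 0.614 and 0.227 ± 0.181 TPM (SD, n = 3 sample numbers), 15.9 times apart, and 7.31 to 58.2 times within sample numbers. The log2 fold change was 1.92 ± 0.16 (SE, limma adjusted p = 3e-05).

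Elavl3 (HuC; chromosome 9, 22015005 to 22052023), often used as an early marker of neurons, was lower in level but just as separate. It was at 0.92, 0.55 and 0.72 TPM in Merkel libraries, at 0.03 in each first basal library and at 0.02, 0.00 and 0.02 in second basal libraries. No Merkel value reached 1 TPM, so it was not tested in the fit with a filter. Without one the log2 fold change was 0.75 ± 0.08 (SE, limma adjusted p = 0.00206), short of the size needed for a call. With small, structural and mitochondrial RNAs removed it passed the filter and was called (1.19, limma adjusted p = 0.00043).

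Elavl4 (HuD; chromosome 4, 110203722 to 110351909), known for stabilising transcripts of growing axons, differed between first and second basal libraries, the only one of the 10 genes to do so at an adjusted p under 0.05 in the fit without a filter or block. Merkel libraries held 0.88, 0.40 and 0.91 TPM, first basal libraries 0.28, 0.44 and 0.28, and second basal libraries 0.04, 0.02 and 0.05. Merkel replicate 2 thus lay below 1 of the first basal libraries, while second basal libraries were the lowest throughout. Merkel against basal, limma without a filter gave 0.54 ± 0.13 (adjusted p = 0.0247). Second against first, the log2 fold change was -0.36 ± 0.06 (limma without a filter, adjusted p = 0.0355; 3.19% of 26838 genes reached this in either direction). First basal libraries also held more of the immune markers: the sum of 6 was 530 to 986 TPM there, 35.4 to 239 in second basal libraries and 36.8 to 130 in Merkel libraries. Of these 6, Cd3e and Trdc had means under 0.25 TPM in each set. The part of such cells in the Elavl4 values was not tested.

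Elavl1 (HuR), which nearly all cells express, averaged 39.4 ± 4.60 TPM in Merkel and 41.6 ± 6.10 in basal libraries. Its log2 fold change was -0.07 ± 0.14 (limma adjusted p = 0.726), with the other sign under median-ratio scaling (0.15) and no call either way. Elavl2, Elavl3 and Elavl4 together made up 12.07%, 9.08% and 13.38% of the family's TPM in Merkel libraries and 0.16% to 1.66% across the 6 basal libraries. The means were 11.5% ± 2.20 and 1.07% ± 0.476 (SD, n = 3), and an exact two-sided permutation test gave p = 0.1, the smallest that 3 against 3 values allow. Such a share within a library does not depend on scaling between libraries.

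The Rbfox family showed the same kind of addition to a broadly expressed member. RBFOX proteins bind a short motif beside alternative exons; RBFOX1 is known from neurons, heart and muscle, RBFOX2 from many tissues, and RBFOX3 carries the NeuN antigen of mature neurons. Rbfox1 (chromosome 16, 5885355 to 7411526) was at 4.26, 3.09 and 3.55 TPM in Merkel libraries, at 0.06, 0.07 and 0.04 in first basal libraries and at 0.00, 0.02 and 0.03 in second basal libraries. The means, 3.63 ± 0.589 and 0.0367 ± 0.00764 TPM, were 99.0 times apart, against basal values near the 2-decimal limit of the table. The log2 fold change was 2.15 ± 0.13 (SE, limma adjusted p = 5.2e-06).

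Rbfox2 (chromosome 15, 77078990 to 77307004) was the most abundant of the 10 genes in libraries of both cell types. Merkel libraries held 17.59, 12.15 and 15.14 TPM, first basal libraries 10.84, 8.95 and 9.77, and second basal libraries 16.78, 13 and 12.82. Merkel libraries lay above all first but among the second basal libraries. It was not called (log2 fold change 0.31 ± 0.16, limma adjusted p = 0.155). The value was 0.55 against first basal libraries alone (adjusted p = 0.0254) and 0.07 against second alone (adjusted p = 0.782). With the sample number as a block the adjusted p was 0.0485, and 0.185 where the block was fitted to all 9 libraries. Median-ratio scaling gave 0.52 (adjusted p = 0.00984), and none of the 17 settings reached the size for a call. Of the 10 genes it alone was tested between second and first basal libraries, and 0 were called, where 4.35% of 13477 tested genes were called (0.48 ± 0.14, limma adjusted p = 0.083, or 0.0187 with the sample number as a block). The antisense gene 1700109K24Rik overlaps it and had a mean of 0.563 TPM in Merkel and 1.09 in basal libraries.

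Rbfox3 (chromosome 11) stayed low, at 0.20, 0.08 and 0.47 TPM in Merkel and 0.06 to 0.11 across basal libraries. Merkel replicate 2 lay among the basal values, and limma without a filter gave 0.19 ± 0.11 (adjusted p = 0.255). Rbfox2 made up 79.77%, 79.31% and 79.02% of the family's TPM in Merkel libraries and 98.35% to 99.53% across the 6 basal libraries. The libraries of the groups did not overlap, with means of 79.4% ± 0.381 and 98.9% ± 0.0829 (SD, n = 3; exact two-sided permutation p = 0.1, the smallest possible here). The Merkel libraries differed by less than 1 percentage point although their Rbfox1 and Rbfox2 levels varied.

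**Figure D2:**
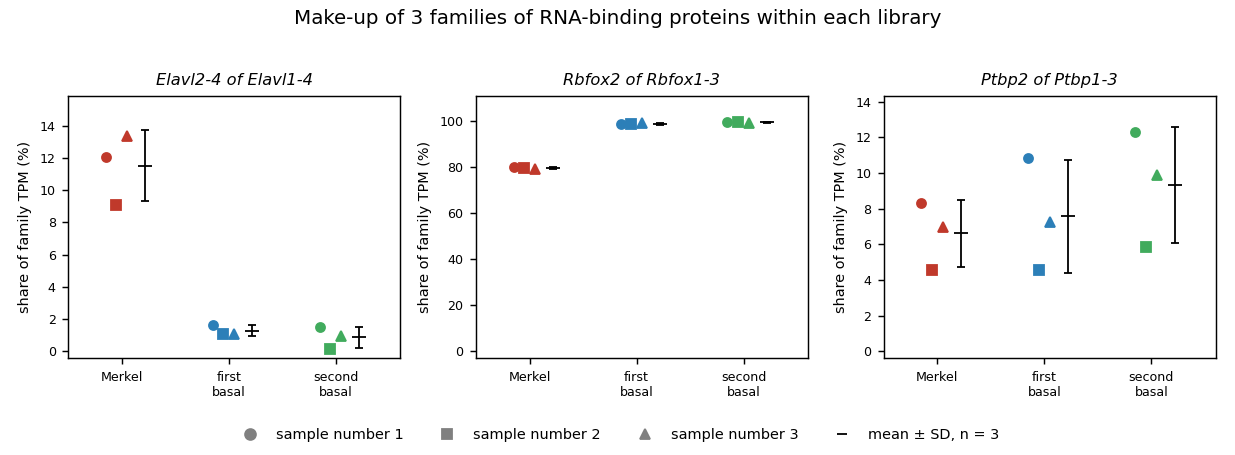
Share of a family's summed TPM (vertical axis, percent) in each library for Elavl2 to Elavl4 within Elavl1 to Elavl4, Rbfox2 within Rbfox1 to Rbfox3, and Ptbp2 within Ptbp1 to Ptbp3; shapes give sample numbers and bars the mean ± SD of 3 libraries. Merkel libraries stand apart for the Elavl and Rbfox families, whereas the Ptbp2 share is spread by sample number.

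Among CELF proteins the members known from the nervous system lay higher in Merkel libraries and the broadly expressed ones lower; of the 6, Celf4 alone was called. Celf3 (chromosome 3, 94478295 to 94492198) was at 1.34, 1.5 and 2.24 TPM in Merkel libraries and 0.42 to 0.83 across the 6 basal libraries, with sample number 3 highest in Merkel and in second basal libraries. The groups did not overlap, at 1.69 ± 0.480 and 0.595 ± 0.128 TPM, and the ratio was 2.71 to 3.03 within sample numbers. Its adjusted p was 0.00485 (limma), but the log2 fold change of 0.75 ± 0.16 was under the size for a call. It was called with a pseudocount of 0.1 (1.36) or with small, structural and mitochondrial RNAs removed (1.02).

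Celf4, a close relative of Celf3, was called higher, at 3.38 ± 0.447 against 0.64 ± 0.0541 TPM (log2 fold change 1.42 ± 0.13, limma adjusted p = 5.8e-05). Like Celf3, it passed the filter on low values only through its Merkel values. Celf5 was at 0.71, 0.86 and 0.91 TPM in Merkel libraries and 0.02 to 0.20 across the 6 basal libraries. Celf6 was at 0.52, 0.35 and 0.94 TPM in Merkel libraries, at 0.05 in 1 basal library and listed at 0 in the other 5. Neither reached the level for testing, and for both every Merkel library lay above every basal library. Celf2 was at 5.81, 4.41 and 5.67 TPM in Merkel libraries, 13.86, 9.97 and 10.86 in first and 8.72, 6.11 and 6.41 in second basal libraries (-0.67 ± 0.16, limma adjusted p = 0.00964), and Celf1 at 25.4 ± 2.27 against 32.9 ± 1.30 TPM (-0.35 ± 0.11, adjusted p = 0.0346). For both genes every Merkel library lay below every basal library, and neither was called. Over 17 alternative settings Celf2 ran from -0.99 to -0.35 (highest adjusted p 0.126) and Celf1 from -0.50 to -0.14 (highest adjusted p 0.204). Celf2 was higher in first than in second basal libraries of each number, as were the immune markers, whose part in it was not tested.

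NOVA proteins, KH-domain splicing factors of brain and spinal cord, were near the lower limit. Nova1 (chromosome 12) was at 0.08, 0.10 and 0.06 TPM in Merkel libraries and 0.00 to 0.04 across the 6 basal libraries, which did not overlap (limma without a filter, 0.09 ± 0.02, adjusted p = 0.0418). Nova2 (chromosome 7) was listed at 0.03 TPM in every Merkel library and at 0.00 to 0.03 in the basal ones. At such values a step of the second decimal is a large part of the level, and no ratio is given.

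The microexon regulators lay on opposite sides. Srrm4 (chromosome 5, 116439275 to 116591817) was at 0.43, 0.23 and 0.41 TPM in Merkel libraries, at 0.44, 0.70 and 0.79 in first and 0.56, 0.87 and 0.86 in second basal libraries. The highest Merkel and the lowest basal library, both of sample number 1, were 0.43 and 0.44 TPM, so that the groups barely missed each other. Limma without a filter gave -0.33 ± 0.11 (adjusted p = 0.0738). The antisense gene Srrm4os overlaps it and had means of 0.137 and 0.165 TPM. Srrm3, a paralog that also promotes microexons, was at 1.64, 1.40 and 1.34 TPM in Merkel libraries. It was at 0.18, 0.00 and 0.01 TPM in first and at 0.02, 0.00 and 0.00 in second basal libraries, and it was called higher (log2 fold change 1.25 ± 0.12, limma adjusted p = 8e-05). Srrm3 too passed the filter only through its Merkel values. The general splicing coactivators of that family lay lower in Merkel cells: Srrm2, a scaffold of nuclear speckles, was called at 34.7 ± 1.12 against 88.3 ± 10.1 TPM (-1.31 ± 0.12, limma adjusted p = 6e-05), while Srrm1 was not (-0.65). Elob overlaps Srrm2 on the opposite strand at 294 and 252 TPM.

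REST, the repressor that keeps neuronal genes silent in other cells and is known to hold down Srrm4, had its transcript in libraries of both cell types. Rest was at 16.31, 11.82 and 13.66 TPM in Merkel, 27.07, 16.81 and 22.60 in first and 30.32, 22.60 and 25.20 in second basal libraries. All Merkel libraries lay below all basal libraries, the Merkel level was 0.568 to 0.6 of the basal level within each sample number, and the log2 fold change of -0.74 ± 0.17 (limma adjusted p = 0.0077) was under the size for a call. Of 11 genes of REST and its cofactors, all tested, 1 was called higher and 0 lower, where 6.79% of all tested genes were called higher and 5.27% lower. The median was -0.47, and -0.25 with median-ratio scaling, against -0.15 and 0.05 for all tested genes. Rcor2, a CoREST-family corepressor, was the called gene, at 44.46, 27.22 and 39.98 TPM against 8.58 to 12.23 in basal libraries (1.73 ± 0.18, adjusted p = 0.00011).

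Polypyrimidine tract-binding proteins are known to block neuronal exons, with PTBP2 taking over from PTBP1 as neurons form. No such exchange was seen in level: Ptbp1 averaged 161 ± 18.8 TPM in Merkel and 199 ± 5.08 in basal libraries (-0.30 ± 0.13, limma adjusted p = 0.0874), and Ptbp3 at 81.8 and 90.8 TPM. Ptbp2 followed the sample number, at 23.46, 10.24 and 19.23 TPM in Merkel, 34.48, 13.28 and 20.97 in first and 43.44, 19.09 and 31.87 in second basal libraries. In each number the Merkel library was the lowest and the second basal library the highest. The log2 fold change was -0.57 ± 0.35 (limma adjusted p = 0.225; with the sample number as a block adjusted p = 0.00188). Ptbp2 made up 6.61% ± 1.89 of the summed TPM of the family in Merkel and 8.45% ± 3.19 in basal libraries (exact two-sided permutation p = 0.4, without pairing). Within each sample number the Merkel share lay below the mean of the basal libraries, at 8.31% against 10.86% and 12.3% in number 1, 4.58% against 4.58% and 5.83% in number 2, and 6.96% against 7.27% and 9.88% in number 3. Gm43300 and Gm42664, annotated within Ptbp2 on the same strand, were at 1.34 and 1.30 TPM in Merkel and 5.04 and 4.75 in basal libraries, and the sharing of reads with them is unknown.

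**Figure D3:**
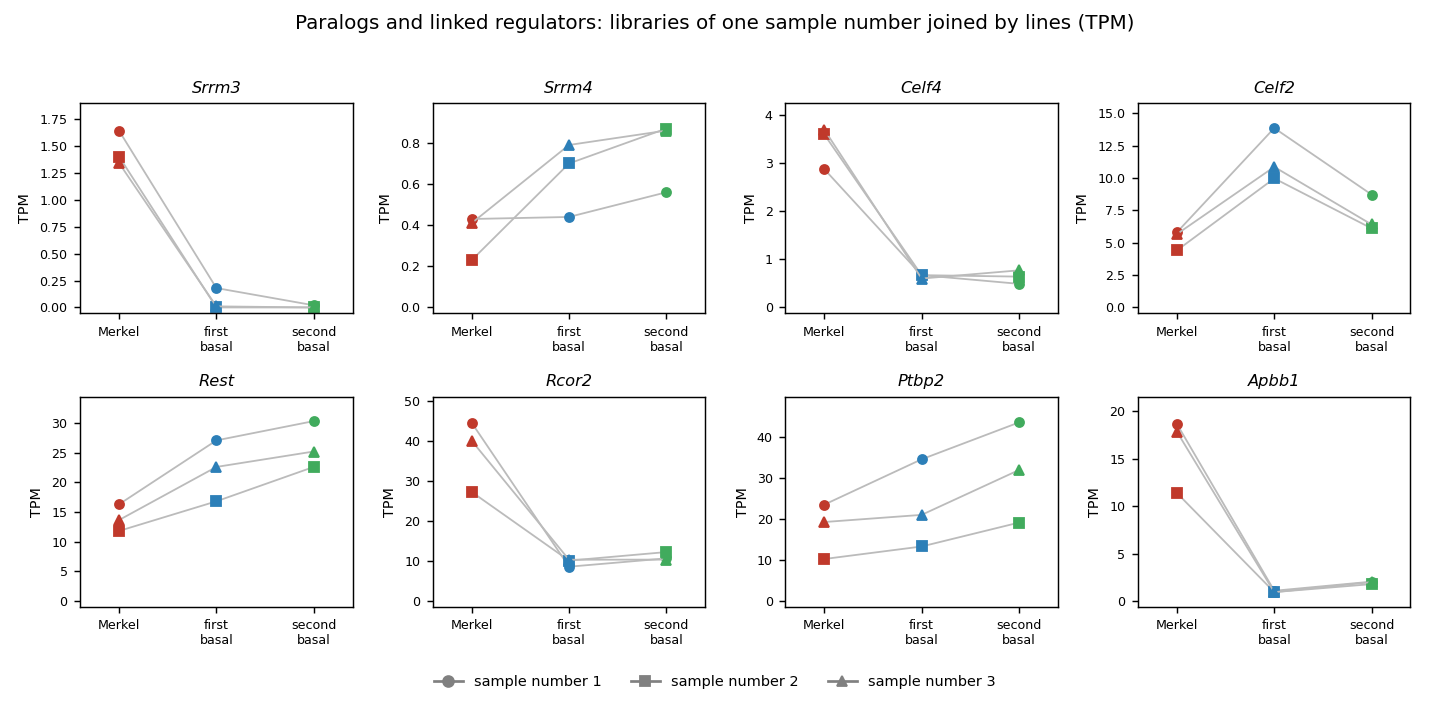
TPM (vertical axis, linear) of paralogs and linked regulators in Merkel, first basal and second basal libraries, with lines joining the libraries of a sample number. Srrm3, Celf4, Rcor2 and Apbb1 drop from Merkel to basal libraries in every number, while Srrm4, Rest and Ptbp2 are lowest in the Merkel library of every number, and Celf2 is highest in first basal libraries.

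Of the epithelial splicing regulators, Esrp1 and Esrp2 were abundant in libraries of both cell types and Rbm47 was at lower TPM in both. Esrp1 and Esrp2 hold exon choice in the epithelial state. They were at 60.1 ± 1.53 and 50.9 ± 2.21 TPM in Merkel and at 86.7 ± 3.48 and 64.0 ± 11.1 in basal libraries. Basal and suprabasal markers were also found in Merkel libraries, and the part of keratinocyte RNA in these levels was not tested. Esrp1 was at -0.51 ± 0.11 (limma adjusted p = 0.00431) and Esrp2 at -0.31 ± 0.14 (adjusted p = 0.109), with 0 of 3 genes of this list called, including Rbm47 at 3.91 ± 0.670 against 6.74 ± 0.956 TPM (-0.65, adjusted p = 0.00839). Each Esrp gene thus exceeded Elavl2 or Rbfox1 in Merkel libraries by more than 10 times in TPM. Nfatc3 overlaps Esrp2 on the opposite strand.

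Across the wider lists of RNA-binding genes the medians lay below 0. Higher and lower count called genes here. Of the 9 family paralogs 7 were tested, 2 higher and 1 lower (median -0.35). Of 14 tested among 16 other splicing regulators 2 were higher and 1 lower (median -0.35). Of 13 SR proteins 1 was higher, of 25 hnRNP and poly(C)-binding genes 2 were higher, and in neither list was any called lower (medians -0.38 and -0.28). Without regard to calls, every Merkel library lay below every basal library for 7 of the 13 and 9 of the 25. It lay above for 1 and 2. Over all 28450 genes above 0 in any library these shares were 16.8% and 9.55%. Of 21 tested among 22 genes of stability and translation 0 were higher and 3 lower (median -0.44). For comparison, 6.79% of all tested genes were called higher and 5.27% lower, and their median was -0.15, which median-ratio scaling moved to 0.05. That scaling brought the medians of these 5 lists to between -0.22 and -0.05.

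The called genes of these lists included both rare and abundant transcripts. Rbm24, a splicing factor of muscle and heart, was at 14.5 ± 1.96 against 0.0533 ± 0.0333 TPM (3.87 ± 0.14, limma adjusted p = 2.3e-07), and Khdrbs3, which directs neurexin splicing in the brain, at 16.0 ± 1.21 against 2.62 ± 0.110 (2.33 ± 0.12). Khdrbs3 was also called higher in second than in first basal libraries, at 3.89 and 1.34 TPM (1.06 ± 0.13, limma adjusted p = 0.00482), a call lost without first basal replicate 1 (0.99). Pcbp3 (2.12), Pcbp4 (1.15) and Srsf12 (1.26) were higher. Rbm24 and Srsf12 passed the filter only through their Merkel values. Pcbp4 was at 0.74 and not called against second basal libraries alone. Lower were Mbnl1 (-1.17), a muscleblind splicing factor, and Zfp36 (-1.28), Zfp36l2 (-1.20) and Igf2bp1 (-1.11). The Mbnl1 and Zfp36l2 calls were lost with median-ratio scaling (-0.95 and -0.98), the Mbnl1 call also against second basal libraries alone (-0.90). Without Merkel replicate 2 the Zfp36 call was lost (-0.91), and so was that of Igf2bp1 (-0.82), which was also lost under 5 more settings (adjusted p 0.0439 to 0.0689 there) and whose groups overlapped.

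**Figure D4:**
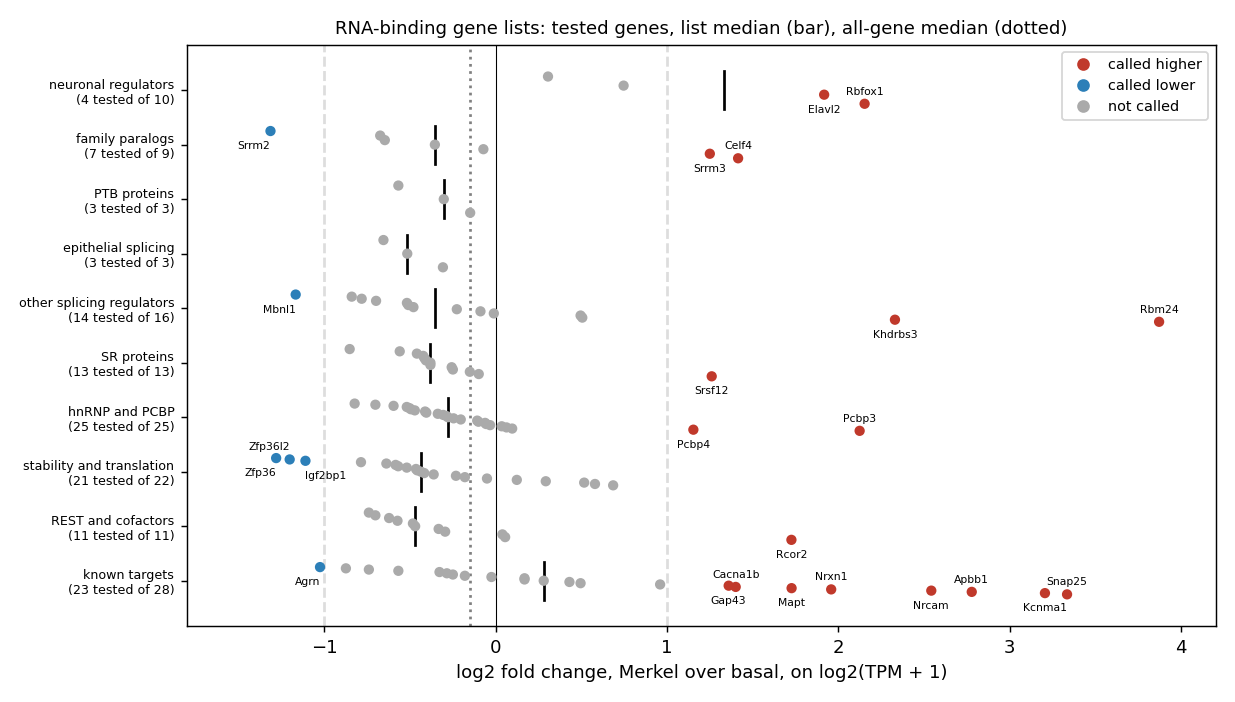
Log2 fold change of Merkel over basal on the log2(TPM + 1) scale (horizontal axis) for the tested genes of each list (rows); red points were called higher, blue lower and grey not called, black bars are list medians and the dotted line is the median of all tested genes at -0.15. Dashed lines mark the size needed for a call, and the called genes are few and named.

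Transcripts known as targets of these proteins were looked at by gene level, which does not show exon use. Of 28 such genes 23 were tested, 8 were higher and 1 lower, where 6.79% of all tested genes were called higher and 5.27% lower. The median was 0.28, and 0.50 with median-ratio scaling, which called 9 higher and 0 lower. The 3 with the smallest adjusted p were Kcnma1, Snap25 and Nrcam. Kcnma1, a potassium channel with many spliced forms, was at 9.28 ± 1.98 against 0.102 ± 0.0437 TPM. Snap25, which acts in the fusion of synaptic vesicles and has alternative exons, was at 9.82 ± 2.43 against 0.055 ± 0.0328 TPM. Nrcam, a neuronal adhesion molecule, was at 7.59 ± 1.73 against 0.482 ± 0.0701 TPM. The log2 fold changes of these 3 genes were 3.21, 3.33 and 2.54, and all 3 passed the filter only through their Merkel values. Apbb1, which carries a neuronal microexon, was at 18.65, 11.38 and 17.83 TPM in Merkel and 0.94 to 2.05 in basal libraries (2.78 ± 0.18, limma adjusted p = 7.6e-06). Gap43, a transcript that ELAVL4 stabilises, was at 1.65, 1.05 and 2.11 TPM in Merkel libraries and listed at 0 in all basal libraries. Agrn, whose neuronal exons NOVA proteins promote, was called lower (57.9 ± 12.0 against 118 ± 8.89 TPM, -1.02 ± 0.16), a call lost under 6 settings, among them median-ratio scaling (-0.80) and the omission of Merkel replicate 2 (-0.85). Apbb1 and Gap43 were chosen after their values were seen.

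Genes that most resembled the regulators in profile were found by Pearson's r with the mean z-score of the 4 members at 1 TPM or more in all Merkel libraries, over the 9 libraries, as a description. They were Xrcc2, Lmo7 and Ica1 (0.995 each), Coro2b (0.994) and Dbn1 (0.993). Mean levels in Merkel and basal libraries were 28.1 and 3.33 TPM for Ica1 and 5.12 and 0.397 for Coro2b. The points share groups and sample numbers.

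Markers of other cells were measured in the same libraries. Of 12 sensory neuron markers 4 had a mean of 1 TPM or more in Merkel libraries, led by Tubb3, and all 12 summed to 57.3 to 86.3 TPM against 2.04 to 4.15 in basal libraries. Nefl, Nefm, Nefh, Prph, Scn9a and Scn10a were under 0.5 TPM in every library. Fibroblast and dermal papilla markers (8 genes) summed to 211 to 323 TPM in Merkel, 42.5 to 110 in first and 119 to 274 in second basal libraries. Dcn held most of that sum in basal libraries and was not called (0.35), and Lum was too low to test. The other 6 were called higher in Merkel cells, at log2 fold changes from 1.45 (Col1a1) to 3.97 (Col3a1), a range that takes in those of Elavl2 and Rbfox1. Melanocyte markers (7 genes) summed to 159 to 224, 16.6 to 36.4 and 112 to 162 TPM in that order. Of these 7, 6 were called higher in Merkel cells, at 1.35 (Kit) to 1.78 (Pmel), and Mitf was not (0.50). Schwann cell markers summed to 45.6 to 62.9 TPM in Merkel and 40.2 to 59.2 in basal libraries, and endothelial markers to at most 3.79 TPM. None of the 5 suprabasal markers was called, at log2 fold changes from -0.40 (Flg) to 0.15 (Ivl). No marker list of these was 0 throughout Merkel libraries, nor was that of basal keratinocytes. The part of such cells in the levels of the regulators and of the other genes was not tested.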

How the data were processed

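Libraries of sorted epidermal cells came from a stranded kit for total RNA and were sequenced from both ends, per the labels' protocols. Trimmomatic, STAR and RSEM on mm10 are named in the submitters' processing notes. Annotation and strand setting: not given in the sources used here. What the authors deposited is 1 table of TPM per gene (49672 rows, including an added EGFP sequence; 49326 matched a symbol by Ensembl ID without version in GENCODE M21, GRCm38). TPM keeps no depth, so no counting interval is given.

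Values were transformed to log2(TPM + 1), with first and second basal values of each number averaged, giving 3 values against 3. Two-sided tests used limma 3.58.1 (R 4.3.3), whose variance prior followed mean level, and p-values were adjusted by Benjamini-Hochberg over all 13822 tested genes. Calls needed adjusted p under 0.05 plus a change of at least 1 on the log2 scale. Second basal libraries were compared with first in the same way (13477 genes). Script output was checked on simulated data. Shares were compared by exact permutation. Tables used Python 3.11.15 and pandas 2.3.3.

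The sample numbers pair the libraries: deviations from group means correlated at 0.385, 0.357 and 0.202 between Merkel and averaged basal values of the same number. Between unlike numbers the correlations were -0.35 to 0.059. The main fit and the permutation tests did not use this pairing, and fits with the sample number as a block are among the alternatives. The members and lists were chosen with earlier results of these data known. Named are all members, their paralogs, the polypyrimidine tract-binding and epithelial lists, Rest, up to 3 called genes per direction of the other lists by adjusted p, the most abundant marker of a list, and the 5 genes most alike in profile.

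Alternatives covered pseudocount, filter, scaling, basal library set, block and omitted replicates. Promoters are RefSeq's (9 of 10 members matched).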

Additional observations from a re-analysis of the deposited data

Results flagged for a closer look

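The 6 basal libraries were screened for a library far from the rest for each of the 10 regulators, where chance alone marks about 1 in 20. Elavl3 was listed at 0.00 TPM in the second basal library of number 2, against 0.02 or 0.03 in the other 5. Nova2 was at 0.03 TPM in the first basal library of number 3, against 0.00 or 0.01 in the others. Both gaps are 2 steps of the last decimal in the table.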

How the results depend on the processing

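Depth is unknown, and values under about 0.1 TPM rest on few steps of the second decimal. Elavl2 (1.82 to 3.70) and Rbfox1 (2.06 to 4.78) were called under all 16 alternative settings set out at the start that tested them. A filter at 5 TPM removed both, leaving 0 members called, with 486 genes higher and 449 lower. A pseudocount of 0.1 called Celf3 (1.36) and 1254 genes lower, and 147 genes higher in second basal libraries. Median-ratio scaling left 415 genes lower. With small, structural and mitochondrial RNA removed 4 members were called, Celf3 at 1.02 among them. No filter with a pseudocount of 0.1, chosen after seeing the data, called 5 members (Celf3 at 1.36), 1989 genes higher and 2229 lower. Elavl1 (-0.16 to 0.04 with each replicate left out in turn) turned positive with median-ratio scaling (0.15), quantile normalization (0.09), small RNA removal (0.02) and without basal replicate 2 (0.04), and Ptbp3 with median-ratio scaling (0.07), none of them called. The cause was not tested.

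Leaving out each replicate in turn gave 877 to 1007 genes higher, 594 to 870 lower and 2 members called. For second against first basal libraries it gave 59 to 120 higher and 273 to 574 lower; without second basal replicate 3 the counts were 59 and 273, and without first basal replicate 3 the lower count was 323. With the sample number as a replicate block 960 genes were higher and 759 lower, and 2 members were called. In the fit of all 9 libraries with the block these were 916, 564 and 2. The block changed no call among the members.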

Other observations

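Features annotated as TEC or sense-intronic, which lie largely within other genes, were lower in Merkel libraries as a class. Of 244 tested, 58 were called lower and 1 higher, and 228 had a log2 fold change below 0, with a median of -0.80. Among 12473 tested protein-coding genes 4.71% were called lower, against 23.8% of these features, with a median of -0.14. Between second and first basal libraries the median of the features was 0.10, and 2 of 340 were called lower. Gm43300 and Gm42664 within Ptbp2 belong to this class. It was noticed after the values were seen.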
